A study of Mus musculus with 20 samples.

Results

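Orexin (hypocretin) and melanin-concentrating hormone (MCH) are neuropeptides made by separate sets of neurons in the lateral hypothalamus, and the genes described here are their precursors and receptors: Hcrt, Pmch, Hcrtr1, Hcrtr2 and Mchr1. They were chosen by name from the gene tables, so 5 of the 53801 listed genes are members, and all 5 were among the 22181 genes with enough counts to be tested. Orexin neurons promote wakefulness, arousal and feeding, and loss of their peptide causes narcolepsy. MCH neurons are known for promoting sleep, particularly rapid eye movement sleep, and for promoting feeding and weight gain. Both peptides are cut from larger precursors, packed into dense-core granules and sensed by G protein-coupled receptors.

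Total RNA from mouse hypothalamus was sequenced after removal of ribosomal RNA, in 20 libraries from a mouse model of Prader-Willi syndrome, a disorder with overeating and sleep disturbance. The control mice (WT) were C57BL/6J, and the other mice (KO) lack both Ndn and Magel2, imprinted genes of the Prader-Willi region. The genotype field of the labels words the KO as a knockdown. Mice were kept in light-dark cycles and killed 6 h (day) or 18 h (night) after lights came on. The 4 groups, WT_day and WT_night, then KO_day and KO_night, hold 5 libraries each. No label gives age or sex, says how the tissue was dissected, or says that each library is a separate animal, so every p measures the spread between these samples, which may be technical. In bulk tissue, fewer cells of a type and less RNA per cell cannot be told apart.

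Library totals ran from 32066289 to 48697647 counts. In 6 libraries (WT_night 1, KO_day 1 and 2, KO_night 1, 2 and 3) the time field of the labels contradicts the title, and groups follow the titles. Dbp, a clock output gene that is high by day, had a level of 28.8 to 44.1 CPM (counts relative to the TMM-scaled library total) in the 8 libraries labelled day in both places and 21.5 to 26.6 in the 6 labelled night in both. Of the 6 contradictory libraries, Dbp was 36.1 and 37.1 in KO_day 1 and 2, 25.7 in WT_night 1, 26.0 and 26.7 in KO_night 1 and 2, and 36.5 in KO_night 3, which in this gene lay among the day libraries. Ndn was at 1.01 CPM or less in every KO library and between 239 and 346 CPM in the 9 other WT libraries, but at 31.0 CPM in the library labelled WT_day 3, where Magel2 was 2.15 CPM against 15.6 to 17.9 in the other WT_day libraries. Among markers of other tissue, the summed pituitary hormone genes (Prl, Gh, Fshb and Tshb) ran from 4.64 to 753 CPM.

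The peptide genes were far more abundant than the receptor genes. Per kilobase of exon, mean levels over the 20 libraries were 379 ± 52.7 CPM (SD, n = 20) for Pmch, 119.8 ± 23.3 for Hcrt, 3.57 ± 0.305 for Hcrtr2, 2.44 ± 0.269 for Mchr1 and 1.19 ± 0.149 for Hcrtr1. No neighbouring genes in that order overlapped within 1 SD. Whether reads were counted over exons or over whole genes is not given in the sources used here, and per kilobase of gene span the receptors changed places. On that scale the means were 217 ± 30.3 CPM for Pmch, 48.2 ± 9.37 for Hcrt, 1.54 ± 0.170 for Mchr1, 0.339 ± 0.0425 for Hcrtr1 and 0.225 ± 0.0192 for Hcrtr2, whose gene spans 97977 bases.

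Hcrt (ENSMUSG00000045471, GRCm38 chr11:100761069-100762931, minus strand) encodes prepro-orexin, from which orexin A and orexin B are cut. Pmch (ENSMUSG00000035383, GRCm38 chr10:88091072-88092375, plus strand) encodes prepro-MCH, the source of MCH and of the peptide NEI. Hcrtr1 (ENSMUSG00000028778, chr4:130130217-130139359, minus strand) and Hcrtr2 (ENSMUSG00000032360, chr9:76225880-76323856, minus strand) encode the orexin receptors. Mchr1 (ENSMUSG00000050164, chr15:81235499-81238964, plus strand) encodes the MCH receptor of rodents. The 250 bases upstream of each annotated start, from RefSeq on GRCm38.p6 (5 of 5 genes matched), are shown 5′ to 3′ for Hcrt, Pmch and Mchr1, because these are the windows that held 1 of the motifs searched, a TATA box (TATAAA) or an E-box (CACGTG, the site of clock factors), in capitals.
Hcrt, chr11:100762932-100763181, minus strand: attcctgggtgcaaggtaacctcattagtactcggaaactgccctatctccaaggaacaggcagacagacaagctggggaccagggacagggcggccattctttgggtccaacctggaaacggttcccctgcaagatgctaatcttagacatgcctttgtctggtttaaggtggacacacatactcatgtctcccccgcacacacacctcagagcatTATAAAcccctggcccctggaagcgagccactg
Pmch, chr10:88090822-88091071, plus strand: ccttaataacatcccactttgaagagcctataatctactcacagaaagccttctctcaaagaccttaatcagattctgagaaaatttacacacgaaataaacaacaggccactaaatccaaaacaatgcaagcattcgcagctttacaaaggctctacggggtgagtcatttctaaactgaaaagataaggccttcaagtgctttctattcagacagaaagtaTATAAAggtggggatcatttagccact
Mchr1, chr15:81235249-81235498, plus strand: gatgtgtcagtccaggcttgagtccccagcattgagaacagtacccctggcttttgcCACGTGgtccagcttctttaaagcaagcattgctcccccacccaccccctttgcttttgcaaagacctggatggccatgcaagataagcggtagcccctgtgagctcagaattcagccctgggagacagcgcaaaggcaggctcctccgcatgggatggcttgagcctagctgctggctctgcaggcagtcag
The TATAAA begins 33 bases before the start in Hcrt and 27 bases before it in Pmch, and the CACGTG begins 193 bases before the start in Mchr1. Neither motif was found in the window of Hcrtr2 or in any of the 3 windows of Hcrtr1. On either strand TATAAA was present in 12.4% of 32851 mouse windows of the same length and CACGTG in 6.02%.

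Hcrt was most uneven in the KO groups. In WT_day, Hcrt was 105, 81.1, 86.6, 93.2 and 92.1 CPM in libraries 1 to 5, and in WT_night it was 83.0, 84.0, 70.4, 82.8 and 88.6 CPM. In KO_day the 5 libraries had 86.0, 50.04, 70.1, 109.6 and 96.6 CPM, and in KO_night 69.7, 105.5, 103, 116 and 121.5 CPM. The highest and lowest of all 20 values were both KO libraries, and the highest KO_day library held 2.19 times the level of the lowest, against 1.29 times in WT_day. The coefficient of variation was 25.0% over the 10 KO libraries and 10.5% over the 10 WT libraries, a difference that was not tested. At night 4 of 5 KO libraries lay above every WT library and the fifth, KO_night 1, lay below them all, so the groups overlapped.

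Group means of Hcrt were 91.6 ± 8.92 CPM (SD, n = 5) in WT_day and 81.8 ± 6.80 in WT_night, against 82.5 ± 23.2 in KO_day and 103 ± 20.2 in KO_night. Averaged over both times, KO was higher than WT by 0.09 ± 0.11 (log2 change ± SE; 95% interval −0.11 to 0.30; edgeR adjusted p = 0.671). No member passed an adjusted p of 0.05 in that comparison, where 1.32% of all tested genes did. That change was 0.16 without KO_day 2 and 0.03 without KO_day 4. By day the change was −0.15 ± 0.15 (adjusted p = 0.818; 0.113% of all genes passed), and it was −0.01 without KO_day 2 and −0.26 without KO_day 4. At night Hcrt was higher in KO by 0.33 ± 0.15 (adjusted p = 0.134), in a comparison in which 11.9% of all genes passed and no member did. That background rested on single libraries, since 122 genes passed at night without WT_night 3 and 4355 without WT_night 4, against 2649 with all libraries. Without KO_night 1, the KO_night library lowest in Hcrt, the night change was 0.44 and passed (adjusted p = 0.0443). The time labels of KO_night 1 contradict each other, but its Dbp of 26.0 CPM lay among the libraries labelled night in both places. With the time field in place of the titles the night change was 0.19 (adjusted p = 0.919).

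**Figure D1:**
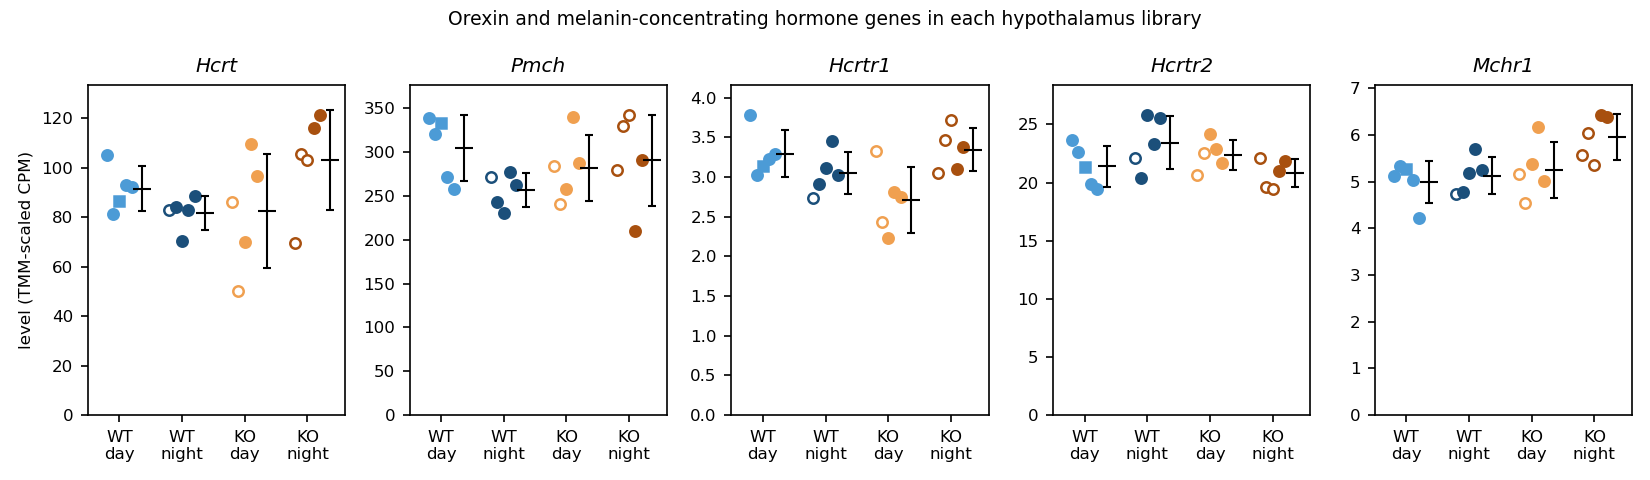
TMM-scaled CPM (vertical axes, from 0) of the 5 genes in each library, by genotype and time on the horizontal axes; bars give mean ± SD of 5 libraries. Hollow points are the 6 libraries whose time labels contradict each other and the square is the library labelled WT_day 3. The KO libraries of Hcrt spread from 50.04 to 121.5 CPM, the WT libraries from 70.4 to 105 CPM, and every pair of groups compared overlaps in every gene.

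Between night and day, Hcrt changed by −0.16 ± 0.15 in WT (adjusted p = 0.611; 0.275% of all genes passed), by 0.32 ± 0.15 in KO (adjusted p = 0.259; 0.0721% passed; 0.18 without KO_day 2) and by 0.08 ± 0.11 averaged over both genotypes (adjusted p = 0.826; 0.117% passed). The interaction, the genotype effect at night minus that by day, was 0.49 ± 0.21 (adjusted p = 0.178). In the interaction edgeR passed 0 of 22181 genes (0%), with 4910 at an unadjusted p under 0.05, and DESeq2 passed 1215, none of them a member. The count of 0 depended on single libraries: edgeR passed 1555 genes without WT_night 4, 1511 without KO_night 4, 717 without KO_day 4 and 474 without KO_day 1, again with no member among them.

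Pmch had the highest level of the 5 genes in every library. In WT_day it was 339, 321, 333.5, 271 and 258 CPM in libraries 1 to 5, and in WT_night 272, 243, 231, 277 and 262 CPM. In KO_day it was 284, 241, 258, 339.7 and 288 CPM, and in KO_night 279.7, 330.1, 343, 210.3 and 291 CPM. Both WT groups overlapped, as did both KO groups, and the lowest of the 20 values was KO_night 4, in which Hcrt was the second highest. Group means were 304.5 ± 37.3 CPM (SD, n = 5) in WT_day and 257 ± 19.6 in WT_night, against 282 ± 37.5 in KO_day and 291 ± 52.1 in KO_night.

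No difference in Pmch passed. KO against WT gave 0.03 ± 0.08 averaged over both times (95% interval −0.11 to 0.18; adjusted p = 0.845), −0.11 ± 0.11 by day (adjusted p = 0.812) and 0.18 ± 0.11 at night (adjusted p = 0.268). Night against day gave −0.25 ± 0.11 in WT (adjusted p = 0.267) and 0.04 ± 0.11 in KO (adjusted p = 0.870). The interaction was 0.29 ± 0.15 (adjusted p = 0.261). Without KO_night 4, the library lowest in Pmch, the night change passed at 0.27 (adjusted p = 0.0417). Over the 14 agreeing libraries, those with 1 time in both labels, the night change was −0.01 (adjusted p = 0.979). Of KO_night, only libraries 4 and 5 are among these 14. Leaving out the library labelled WT_day 3 moved the day change from −0.11 to −0.07 (adjusted p = 0.947).

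The Pmch count may share reads with another gene. Parpbp, which encodes a DNA repair protein, lies on the opposite strand at chr10:88091432-88146941 and overlaps 944 bases, or 72.4%, of the Pmch gene. Its count was between 0.823 and 0.863 of the Pmch count in every library, and across the 20 libraries the log2 levels of both had Pearson r = 0.997. Its changes were close to those of Pmch, for example 0.20 ± 0.10 at night (adjusted p = 0.201). The labels call the RNA-seq strand-specific, but the strand setting of the counting is not given in the sources used here, so both genes are uncertain to the extent that reads are shared. In Hcrtr2 an antisense transcript, Gm27234 (chr9:76319577-76320846), overlaps 1.3% of the gene and had 7 to 24 counts per library. The other members overlap no annotated gene.

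**Figure D2:**
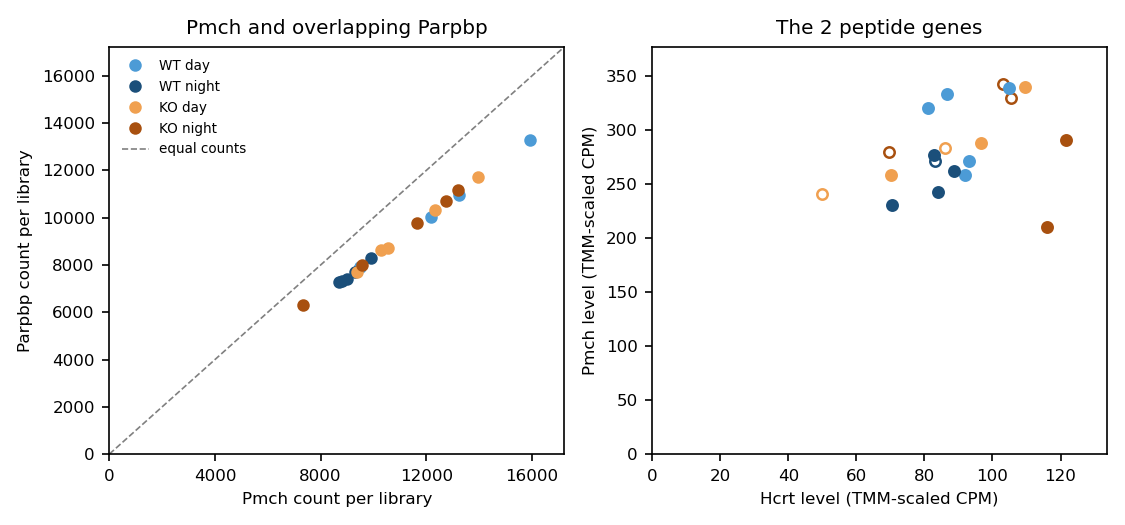
Left, the count of Parpbp against the count of Pmch in each of 20 libraries, with the line of equal counts dashed; points lie along 1 ratio, 0.823 to 0.863. Right, scaled CPM of Pmch against that of Hcrt per library in the same colours, with hollow points for contradictory time labels; KO_night 4, at 116 CPM of Hcrt and 210.3 CPM of Pmch, stands apart at the lower right.

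Within libraries, the ratio of Pmch to Hcrt counts was 3.35 ± 0.532 (SD, n = 5) in WT_day and 3.15 ± 0.207 in WT_night, against 3.58 ± 0.741 in KO_day and 2.93 ± 0.852 in KO_night. It ran from 1.81 in KO_night 4 to 4.81 in KO_day 2. None of the 4 differences between groups passed an exact 2-sided permutation test of the log2 ratios, with unadjusted p between 0.246 and 0.619 and adjusted p, over 8 tests of 2 ratios, between 0.394 and 0.619.

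The orexin receptors differ in ligand preference, since Hcrtr1 favours orexin A and Hcrtr2 binds both orexins, and Hcrtr2 is the receptor whose loss gives narcolepsy in dogs. Hcrtr1 rested on 81 to 150 counts per library. It was 3.79, 3.03, 3.14, 3.23 and 3.29 CPM in WT_day 1 to 5 and 2.74, 2.91, 3.11, 3.45 and 3.03 CPM in WT_night. In KO_day it was 3.33, 2.43, 2.23, 2.81 and 2.74 CPM, with 4 of 5 libraries below every WT_day library, and in KO_night 3.05, 3.46, 3.71, 3.11 and 3.38 CPM. KO_day 1, a library with contradictory time labels, was the KO_day library that overlapped WT_day.

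Hcrtr1 differed between KO and WT by −0.28 ± 0.10 by day (95% interval −0.49 to −0.08; adjusted p = 0.342) and by 0.13 ± 0.10 at night (adjusted p = 0.413). Averaged over both times the change was −0.07 ± 0.07 (adjusted p = 0.608). Night against day gave −0.11 ± 0.10 in WT (adjusted p = 0.617) and 0.30 ± 0.10 in KO (adjusted p = 0.150). The interaction was 0.41 ± 0.15 (unadjusted p = 0.00991, adjusted p = 0.118), and 0.06 (adjusted p = 0.9996) with the time field.

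Hcrtr2 was 23.6, 22.7, 21.3, 19.9 and 19.5 CPM in WT_day 1 to 5 and 22.1, 20.4, 25.9, 23.4 and 25.5 CPM in WT_night. In KO_day it was 20.7, 22.5, 24.1, 22.9 and 21.7 CPM and in KO_night 22.1, 19.6, 19.4, 21.02 and 21.8 CPM. At night 2 of 5 KO libraries lay below every WT library, and the other 3 were within the WT range. The night change of −0.17 ± 0.07 (95% interval −0.30 to −0.04) had the lowest adjusted p of any member in any comparison, 0.0855, and among 28 alternatives it passed only when WT_night 2 was left out (−0.22, adjusted p = 0.0436). By day the change was 0.06 ± 0.07 (adjusted p = 0.832), averaged over both times −0.05 ± 0.05 (adjusted p = 0.551), and the interaction −0.24 ± 0.09 (adjusted p = 0.150). Night against day gave 0.13 ± 0.07 in WT (adjusted p = 0.336) and −0.11 ± 0.07 in KO (adjusted p = 0.414).

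Mchr1, which couples to inhibitory G proteins and sits on neuronal cilia, had 155 to 254 counts per library. It was 5.12, 5.34, 5.27, 5.03 and 4.22 CPM in WT_day 1 to 5 and 4.74, 4.78, 5.18, 5.71 and 5.24 CPM in WT_night. In KO_day it was 5.16, 4.53, 5.38, 6.17 and 5.01 CPM and in KO_night 5.58, 6.04, 5.35, 6.44 and 6.38 CPM, where 3 of 5 libraries lay above every WT_night library. KO was higher than WT by 0.14 ± 0.06 averaged over both times (95% interval 0.02 to 0.27; adjusted p = 0.222), by 0.07 ± 0.09 by day (adjusted p = 0.880) and by 0.21 ± 0.09 at night (adjusted p = 0.113). Night against day gave 0.04 ± 0.09 in WT (adjusted p = 0.878) and 0.18 ± 0.09 in KO (adjusted p = 0.287), and the interaction was 0.15 ± 0.13 (adjusted p = 0.516).

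**Figure D3:**
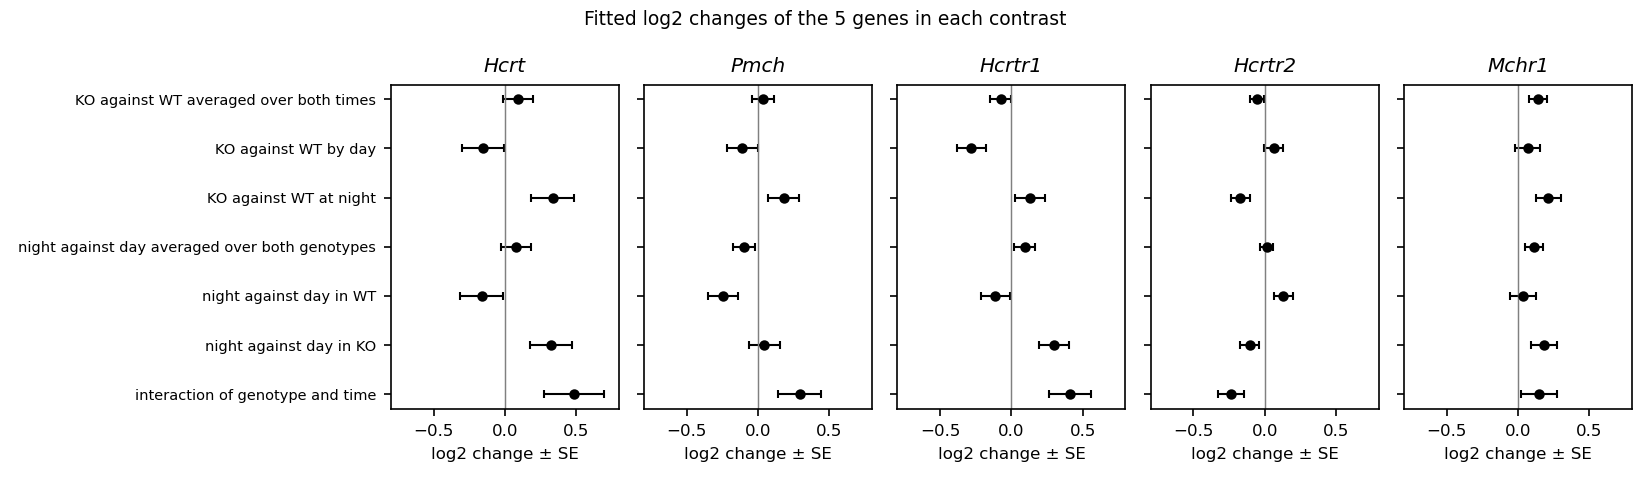
Fitted log2 changes (horizontal axes) with SE bars for the 5 genes in the 7 contrasts (vertical axis), from 1 edgeR fit to 20 libraries. Hcrt, Pmch and Hcrtr1 lie below 0 in KO against WT by day and above 0 at night, Hcrtr2 lies the other way round, and no point passed an adjusted p of 0.05.

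The balance between the orexin receptors was compared within libraries, which removes the scaling of the library. The ratio of Hcrtr1 to Hcrtr2 counts was 0.154 ± 0.0139 (SD, n = 5) in WT_day and 0.131 ± 0.0137 in WT_night, against 0.122 ± 0.0255 in KO_day and 0.162 ± 0.0216 in KO_night. The lowest of the 20 values was 0.0926 in KO_day 3 and the highest 0.191 in KO_night 3, and each pair of groups overlapped. On the log2 scale KO was lower than WT by day (−0.35) and higher at night (0.30), and night was lower than day in WT (−0.24) and higher in KO (0.41). Exact 2-sided permutation p-values were 0.0476, 0.0317, 0.0397 and 0.0397, and each became 0.0952 when adjusted over the 8 tests. The smallest unadjusted p that groups of 5 allow is 0.00794.

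The genotype effect on this ratio differed between night and day by 0.65 on the log2 scale. An exact permutation test of that difference, which exchanged genotypes within each time over 63504 regroupings and was added after the data were seen, gave p = 0.00202 (adjusted p = 0.00403 over the 2 ratios). It was 0.67 without the library labelled WT_day 3 (exact permutation, adjusted p = 0.00624), 0.59 without KO_night 3 (adjusted p = 0.00737) and 0.64 over the 14 agreeing libraries (adjusted p = 0.00952). Of KO_night, those 14 hold libraries 4 and 5 only. In them the genotype effect was −0.44 by day and 0.20 at night, against −0.35 and 0.30 over all libraries. With the time field in place of the titles the difference between night and day was 0.21 and did not pass (exact permutation, adjusted p = 0.697). For Pmch to Hcrt the same difference was −0.24 (exact permutation, adjusted p = 0.369).

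Gene length moved with these results. Hcrtr2 spans 97977 bases, Hcrtr1 9143, and the other members less. In each library the median log2 deviation of 2701 genes spanning over 100 kb was subtracted from that of 8044 genes spanning under 10 kb. This index was 0.0225 ± 0.0242 (SD, n = 5) in WT_day and −0.114 ± 0.144 in WT_night, against −0.0146 ± 0.127 in KO_day and 0.133 ± 0.0902 in KO_night, so the short genes were relatively highest in KO_night. Across the 20 libraries it had a Pearson r of 0.574 with Hcrt, 0.542 with Hcrtr1, −0.598 with Hcrtr2, 0.611 with Pmch and 0.476 with Mchr1, with Spearman rho of 0.519, 0.612, −0.499, 0.630 and 0.588. All 5 Pearson permutation p-values, adjusted over the 5 relations, lay between 0.0133 and 0.0333, and those of Spearman between 0.0121 and 0.0264. These permutations ignored the 4 groups, between which the index differed. Hcrt, Pmch, Mchr1 and Hcrtr1 are themselves among the genes spanning under 10 kb. How common such r is among other genes of like span was not tested. Without the 2 libraries farthest from the median of the index (KO_night 2 and WT_night 3) r was 0.525, 0.686, −0.358, 0.493 and 0.495, and for Hcrtr2 the relation no longer held (permutation p = 0.145). As deviations from group means r was 0.452, 0.567, −0.390, 0.608 and 0.272.

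With each library's trend of expression on gene span removed, the night change of Hcrtr2 became −0.08 (adjusted p = 0.472), that of Hcrt 0.25 (adjusted p = 0.288), that of Pmch 0.09 (adjusted p = 0.630) and that of Mchr1 0.13 (adjusted p = 0.366). The difference of the genotype effect on the Hcrtr1 to Hcrtr2 ratio between night and day became 0.46 (exact permutation, adjusted p = 0.0148). That test was added after the data were seen, so its p is a description only. With the trend removed, the edgeR interaction was 0.34 for Hcrtr1 (adjusted p = 0.226) and −0.12 for Hcrtr2 (adjusted p = 0.493). Of all genes, 1172 passed at night with the trend removed, against 2649 without the correction.

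**Figure D4:**
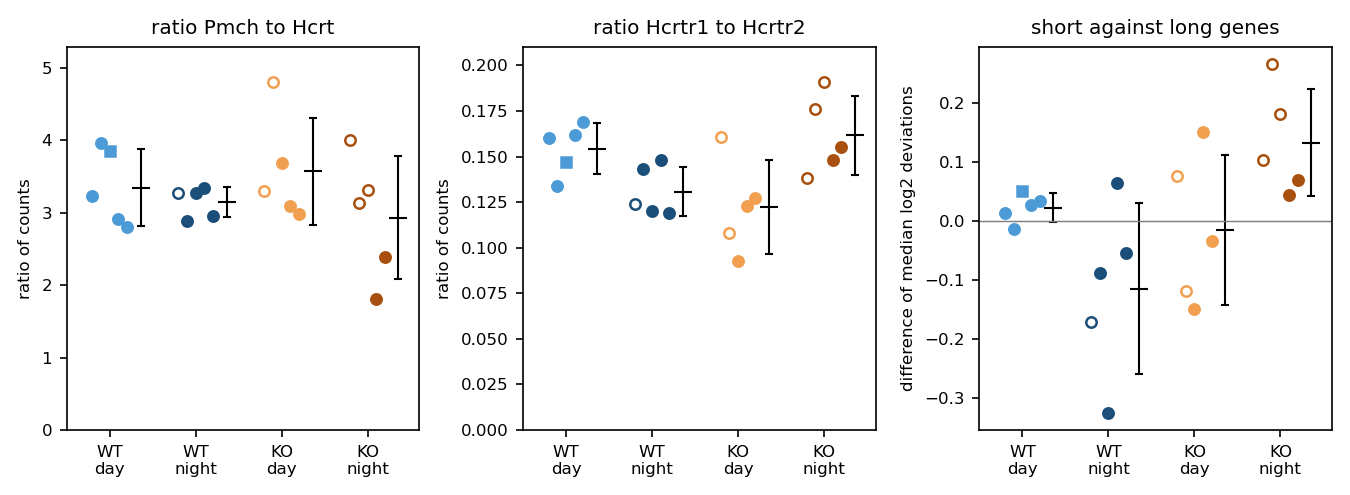
Within-library ratios of counts for the peptide genes (left) and the orexin receptors (centre), and the short-against-long gene index on the log2 scale (right), each by genotype and time, with mean ± SD of 5 libraries; hollow points have contradictory time labels and the square is the library labelled WT_day 3. The receptor ratio is highest in KO_night (0.138 to 0.191) and the index is highest there too (0.0448 to 0.265).

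No pair of members, of 10, passed a test of correlation across libraries. The strongest relation across the 20 libraries was between Hcrt and Hcrtr1 (Pearson r = 0.585, Spearman rho = 0.474; permutation p-values adjusted over 10 pairs 0.0759 and 0.210), and r fell to 0.429 without KO_day 2 and KO_night 5, the libraries farthest in Hcrt. Hcrt and Pmch had r = 0.379 and rho = 0.418 (adjusted p = 0.250 and 0.210), with r = 0.296 without the same 2 libraries and 0.332 as deviations from group means. The orexin receptors had r = −0.333 and rho = −0.352 over all libraries (adjusted p = 0.250 and 0.210), and r = −0.211 without KO_day 2 and KO_day 3. As deviations from group means r of the orexin receptors was −0.171. Pearson r was 0.0843 over the 10 WT libraries and −0.874 over the 10 KO libraries, each pooling day and night, values given without a test of their difference. Hcrt and Mchr1 also had unlike values, −0.232 over WT and 0.79 over KO, likewise not tested.

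Genes with the most similar pattern were taken from the 5 highest Pearson r of log2 level over 20 libraries among 13812 genes of at least 1 CPM. For Hcrt these were Zfp358 (r = 0.876), Nespas, Tuba4a, Cend1 and Gne, all at r of 0.809 or more. For Pmch they were Parpbp, which overlaps it, then Sccpdh (r = 0.925), Rnf14, Tmem167b and C1d. Hcrtr1 was closest to Fam131b (r = 0.861), Acp2, Lbh and Hist1h1b, and Mchr1 to Neurl1b (r = 0.853), Ttyh1, Alkbh5, Ccdc117 and Msl1. The genes closest to Hcrtr2, Grb14 (r = 0.870), Ptpro, Rbm41, Nrp1 and Pdgfc, all span more than 100 kb, from 109 kb in Rbm41 to 211 kb in Ptpro. Those named for Hcrt span 3.05 kb (Cend1) to 50.1 kb (Gne) and those for Pmch 6.04 kb (Tmem167b) to 55.5 kb (Parpbp). For Hcrtr1 they span 0.743 kb (Hist1h1b) to 23.6 kb (Lbh), and for Mchr1 12.3 kb (Msl1) to 31.5 kb (Neurl1b). How common such spans are among the 13812 genes was not tested.

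Genes that orexin neurons also express did not pass in any comparison. Of 8 such genes (Pdyn, Nptx2, Qrfp, Lhx9, Ebf2, Igfbp3, Scg2 and Slc17a6), none passed. Averaged over both times 7 were higher in KO, against 49.5% of all tested genes. The median change of the 8 was 0.06, beside −0.00126 for all tested genes. Qrfp, which encodes a feeding peptide of the same region, was 0.31 ± 0.13 higher (adjusted p = 0.195). The transcription factor gene Lhx9, which marks developing orexin neurons, was 0.18 ± 0.12 higher averaged over both times (adjusted p = 0.430). At night Lhx9 was 0.45 ± 0.17 higher (adjusted p = 0.0770).

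Of 6 genes expressed in MCH neurons (Cartpt, Tacr3, Gad1, Slc17a6, Cnr1 and Nptx1), 1 rose and none fell, both averaged over both times (1.32% of all genes passed) and at night (11.9% of all genes passed). Their median change was 0.06 averaged over both times and 0.12 at night (0.01 for all genes). Gad1, which makes the enzyme for GABA and is expressed by many hypothalamic neurons, was 170 ± 6.497 CPM (SD, n = 5) in WT_day and 160.0 ± 6.46 in WT_night, against 178 ± 7.34 in KO_day and 185 ± 12.8 in KO_night. It rose in KO by 0.14 ± 0.03 averaged over both times (adjusted p = 0.0467) and by 0.21 ± 0.05 at night (adjusted p = 0.0168). Over the 14 libraries with agreeing time labels these were 0.08 (adjusted p = 0.453) and 0.10 (adjusted p = 0.563). Cartpt, which encodes the CART peptide present in many MCH neurons, was 0.13 ± 0.06 higher averaged over both times (adjusted p = 0.224).

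The genes that process and store such peptides did not pass in any comparison, 0 of 9 (Pcsk1, Pcsk2, Pcsk1n, Cpe, Scg5, Pam, Scg3, Chga and Chgb). Their median change was 0.05 averaged over both times and 0.10 at night. The 2 lowest p-values averaged over both times were those of Pcsk1n, an inhibitor of prohormone convertase 1 (0.16 ± 0.05, adjusted p = 0.117), and Chga, a granule protein (0.12 ± 0.06, adjusted p = 0.226).

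Among 12 genes of receptor coupling, 2 rose and 1 fell at night, when 11.9% of all genes passed, and 1 fell averaged over both times, when 1.32% did. Rgs8, a regulator of G protein signalling that has been tied to MCH receptor signalling, was 39.6 ± 1.28 CPM (SD, n = 5) in WT_day and 40.0 ± 1.94 in WT_night, against 40.1 ± 3.72 in KO_day and 47.3 ± 2.01 in KO_night. It rose at night by 0.24 ± 0.05 (adjusted p = 0.0160). With the time field in place of the titles the night change of Rgs8 was 0.06 (adjusted p = 0.923). Gna11, a Gq-family subunit of the kind orexin receptors use, rose at night by 0.15 ± 0.04 (adjusted p = 0.0290). Plcb1, a phospholipase C beta, fell by 0.26 ± 0.06 averaged over both times (adjusted p = 0.0288). The related Plcb4 fell by 0.18 ± 0.05 at night (adjusted p = 0.0332), and this turned to 0.06 (adjusted p = 0.511) with the trend on gene span removed. The same correction took Plcb1 to −0.11 (adjusted p = 0.0806) and Gna11 to 0.11 (adjusted p = 0.0612), and neither passed. Over the 14 agreeing libraries none of these genes passed, with changes of 0.21 for Rgs8 (adjusted p = 0.206), 0.09 for Gna11 (adjusted p = 0.598), −0.18 for Plcb1 (adjusted p = 0.238) and −0.14 for Plcb4 (adjusted p = 0.525). In that smaller set KO_night is represented by libraries 4 and 5 only, and 6 genes in all passed at night. The whole list had a median change of 0.0044 averaged over both times and 0.01 at night.

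Of 7 genes that mark arousal neurons or the receptor Qrfpr, 6 were tested and none passed. Hdc, which makes histamine in a wake-promoting nucleus that orexin excites, was 0.26 ± 0.07 higher in KO averaged over both times (adjusted p = 0.0603). Slc18a3 is listed at 0 in every library, and whether this reflects absent RNA or the counting of reads was not tested. Of 6 markers of the lateral hypothalamus and zona incerta (Nts, Gal, Lhx6, Tac1, Calb1 and Calb2), 1 rose and none fell at night, when 11.9% of all genes passed. At night 5 of the 6 were higher in KO (51% of all genes were) with a median change of 0.07, and none passed in another comparison. Between night and day in WT 0 of the 6 were higher (median −0.12), against 51.4% of all genes. The interaction was above 0 in 6 of 6 (median 0.12), against 50.5% of all genes. Calb2 was 97.5 ± 7.79 CPM (SD, n = 5) in WT_night and 115 ± 8.56 in KO_night, and it rose at night by 0.24 ± 0.06 (adjusted p = 0.0246). Over the 14 agreeing libraries this was 0.17 (adjusted p = 0.486). Summed thalamic markers (Tcf7l2, Prkcd, Rora and Plekhg1) were 387 to 659 CPM in WT_night and 314 to 434 CPM in KO_night. Most of that sum is Rora, with means of 452 CPM in WT_night and 330 CPM in KO_night. Of the 4, Rora alone passed at night, where it fell (−0.45 ± 0.12, adjusted p = 0.0236), and 1, Prkcd, was higher in KO. Prkcd was 6.98 ± 0.380 CPM (SD, n = 5) in WT_night and 9.64 ± 7.98 in KO_night. Its KO_night median was 6.35 CPM and its highest KO_night library was at 23.9 CPM. Rora was at −0.14 (adjusted p = 0.174) with the trend on gene span removed and −0.29 (adjusted p = 0.531) over the 14 agreeing libraries. The part of these regional markers in the members' values was not tested.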

How the data were processed

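Total RNA of hypothalamus was measured in 20 libraries. The authors deposited raw counts for each gene. Tools named by the submitters' processing notes are HISAT2 and featureCounts, with the build mm10; versions and the strand setting are not given in the sources used here. The table of WT_night 3 is laid out differently from the other 19, and an automatic check that did not read this layout gave its unit as "other". Its values are whole numbers for the same genes in the same order, and they were read as counts. Symbols, positions and spans came from GENCODE M21 (GRCm38), which matched 53706 of 53801 genes. Counts were tested with edgeR 4.0.16 in R 4.3.3 (quasi-likelihood F-test, TMM scaling with factors of 0.945 to 1.08, filterByExpr with a minimum count of 10, 22181 genes, Benjamini-Hochberg), in 1 fit of 4 group means with 7 contrasts, and the script was tested on simulated data. Levels are TMM-scaled CPM. Ratios and correlations used log2 CPM with a prior count of 2 and permutation tests (100000 resamples for correlations, exact for ratios). Alternatives were DESeq2 1.42.0, other size factors, no filter, the time field, agreeing libraries, no WT_night 1 to 3, a replicate block, a correction for gene span and leaving out each library. Of 40 pairs of libraries within groups, the lowest chi-square per degree of freedom was 5.58, so none differ by counting error alone. WT_day 5 repeats a title number and was given the missing number, and KO_day 5, whose title has no time letter, was placed by its time field. Named genes are the members, list genes that passed or had the lowest p, and the 5 most similar genes per member; some of these genes, and the marker sums that hold them, are not reported here. The members and lists were chosen with earlier results of these data known, and the list genes of other cell types serve as markers only. Motifs were searched on both strands of 250 bases before each RefSeq start.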

Additional observations from a re-analysis of the deposited data

Results flagged for a closer look

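Dixon's test for a sample far from the others was applied to 40 groups of 5 libraries, of which chance flags about 1 in 20, and it marked 3. Mchr1 was 4.22 CPM in WT_day 5, against 5.03 to 5.34 in the other 4 WT_day libraries, and the WT_day mean was 4.996 CPM with it and 5.19 without it. Ndn was 31.0 CPM in the library labelled WT_day 3, against 248 to 274 in the other WT_day libraries. Magel2 was 2.15 CPM in the same library, against 15.6 to 17.9. In that library the members lay within the range of the other WT_day libraries, with Hcrt at 86.6, Pmch at 333.5, Hcrtr1 at 3.14, Hcrtr2 at 21.3 and Mchr1 at 5.27 CPM.

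The genotype effect on the ratio of Hcrtr1 to Hcrtr2 differed between night and day by 0.651 on the log2 scale (exact permutation of genotypes within each time, adjusted p = 0.00403). That test was chosen after the 4 differences of this ratio had been seen and was adjusted over 2 ratios only, so it is a description of the pattern that prompted it rather than independent support. Beside it stands the short-against-long gene index, with means of 0.0225, −0.114, −0.0146 and 0.133 in WT_day, WT_night, KO_day and KO_night. With the trend on gene span removed the difference was 0.46 (exact permutation, adjusted p = 0.0148). For the 6 contradictory libraries the labels do not settle the time of killing, and with the time field the difference was 0.210.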

How the results depend on the processing

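Each of the 35 log2 changes of a member (5 genes, 7 contrasts) was recomputed under 28 alternatives, DESeq2 giving no adjusted p for Hcrtr1 and Mchr1 between night and day in KO. Of the 978 values, 951 kept their direction and their side of the threshold, 3 passed and 24 changed sign, none of these past the threshold. The number of members passed ran from 0 to 1 at night when a library was left out (1 without WT_night 2, KO_night 1 or KO_night 4), and was 0 in every other contrast and alternative. Under the time field the sign changed for KO against WT in Hcrt by day (0.0380), Pmch by day (0.0371) and Hcrtr1 at night (−0.0356), for night against day averaged over genotypes in Hcrt (−0.0671) and Hcrtr1 (−0.00669), for Pmch in KO (−0.259), and for the interaction of Pmch (−0.0194) and Mchr1 (−0.0726). Over the 14 agreeing libraries it changed for Pmch averaged (−0.0296), at night (−0.0146) and between night and day in KO (−0.237), and for Hcrt by day (0.00891). Pmch averaged was −0.000997 without WT_night 1, 2 and 3, and between night and day in KO −0.00693 with the span trend removed, which also turned Plcb4 at night to 0.0555. Leaving out a library gave ranges of −0.000041 to 0.0804 for Pmch averaged, −0.0219 to 0.137 for Pmch in KO, −0.00766 to 0.0363 for Hcrtr2 averaged between night and day, and −0.00638 to 0.0671 for Mchr1 in WT. The receptor ratio by day ran from −0.457 to −0.260 and in KO from 0.319 to 0.516 with a library left out, passing without KO_day 1. The difference of the genotype effect on that ratio ran from 0.559 to 0.756 and was 0.210 with the time field (exact permutation, adjusted p = 0.697). The ratio of Pmch to Hcrt ran from −0.0275 to 0.149 by day and from −0.278 to 0.0084 at night. The correlation of Hcrtr1 and Mchr1 was −0.0235 and that of Hcrtr2 and Pmch 0.0556 over the agreeing libraries, and the latter 0.0230 as deviations from group means. For every change of sign the cause was not tested.

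Correlations between libraries gave no clear sign that replicate numbers pair the samples, but they cannot exclude such pairing. Of 30 same-numbered pairs 3 correlated above 0.1 (range −0.167 to 0.303), and 4 of 20 libraries correlated best with their own number. With the number as a replicate block no member passed, the night change of Hcrt was 0.33 (adjusted p = 0.123), and 1690 genes passed at night against 2649. At night 3529 genes passed with DESeq2, 6 over the agreeing libraries, 4 with the time field and 11 without WT_night 1, 2 and 3. Averaged over both times 293 passed, against 1046, 58, 30 and 19. Leaving out a library gave 122 (without WT_night 3) to 4355 (without WT_night 4) genes at night, 47 (without KO_night 3) to 1265 (without WT_night 4) averaged, and 0 to 1555 (without WT_night 4) in the interaction. Hcrtr1 rests on 81 to 150 counts per library.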
